A study of Mus musculus with 8 samples.

Results

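The genes described here act on cholesterol that reaches the lysosome and on its way out: Lipa, Npc1, Npc2, Scarb2, Stard3, Stard4, Tmem97, Soat1, Soat2 and Nceh1. They were picked by name from the gene names in the array files, and the group was put together because Lipa was lower in these arrays after knockdown of Raly. The 10 genes are measured by 13 probes, and all 10 are among the 14874 genes that could be tested. The values of Lipa in the comparison of control with shRaly therefore chose the group. For that reason the differences of all 10 genes in this comparison are given as a description, with their errors and with no p-value, and support nothing further. Where genes with an adjusted p under 0.05 are counted, nothing is read from the count for these 10.

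RNA came from whole livers of 12-week-old mice of the strain labelled bl6 on chow. The control group (4 arrays) received the virus labelled pblockITcontrol and the shRaly group (4 arrays) the virus labelled pblockITshRaly, an adenovirus with a short hairpin RNA against Raly, and both received the same dose, 2e+09 with no unit in the labels. Livers were taken on day 6. Both groups thus carry a virus, and no group without one was analysed here. The route of delivery, the hairpin and the cells it reached are not given in the sources used here, and the labels do not say that each array is a separate mouse.

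Low-density lipoprotein taken up by a liver cell is broken down in the lysosome, where lysosomal acid lipase, the product of Lipa, splits cholesteryl esters. Free cholesterol is then handed by the soluble protein NPC2 to the membrane protein NPC1, leaves the lysosome, and moves to the endoplasmic reticulum, where SOAT enzymes esterify it again for storage or for lipoproteins. Cholesterol in the endoplasmic reticulum holds the transcription factor SREBP2 inactive, and SREBP2 drives the genes of cholesterol synthesis and uptake.

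The arrays were alike in quality, with 45.9% (shRaly 2) to 51.1% of the non-control spots well above background. Of the 17 hepatocyte markers looked for, 16 were tested and all 16 were well above background on all 8 arrays. Raly itself was at 62.5% of the control mean in the shRaly group (log2 fold change -0.68, SE 0.15, n = 4 and 4), with all shRaly arrays below all control arrays (two-sided p = 0.0286 by an exact permutation test, which cannot go lower with 4 arrays a side) and an adjusted p of 0.0749 in limma over all genes. Control arrays lay in slide row 1 and shRaly arrays in slide row 2, so group and slide row cannot be told apart. Since whole liver was used, fewer cells of a type and less RNA per cell cannot be told apart either.

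Relative to its own control level, Lipa was the lowest of the 10 genes in shRaly livers. Its only probe lies at chr19:34567717-34567776 on the minus strand (mm9). The first 30 of its 60 bases are given, since every Lipa value rests on this probe:

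Lipa probe, first 30 bases: ctgttgtttgctagcaaaaataagtctgcc

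Before any scaling, its processed signal was 3899, 3046, 2951 and 2889 on control 1 to 4, and 1277, 1258, 1033 and 908 on shRaly 1 to 4. Scaled to the 75th percentile of each array and set against the control mean (the mean of log2 values), the control arrays stood at 116%, 103%, 90.4% and 93.2%. The shRaly arrays stood at 46.9%, 45.9%, 30.1% and 28.3%. The groups were far apart: the highest shRaly array lay well below the lowest control array. The shRaly group was at 36.8% of control (log2 fold change -1.44, SE 0.19, n = 4 and 4), and the 95% interval of that level runs from 27.5% to 49.3%. The shRaly arrays formed a higher pair (1 and 2) and a lower pair (3 and 4), with an SD of 0.39 on the log2 scale against 0.16 among controls.

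The order of the Lipa values on the shRaly arrays was not that of Raly. Raly stood at 51.8%, 80.9%, 58.3% and 62.7% of its control mean on shRaly 1 to 4. The array with least Raly, shRaly 1, was the one with most Lipa, and shRaly 2, with most Raly, had nearly the same Lipa level as shRaly 1. No correlation is given over so few arrays.

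**Figure D1:**
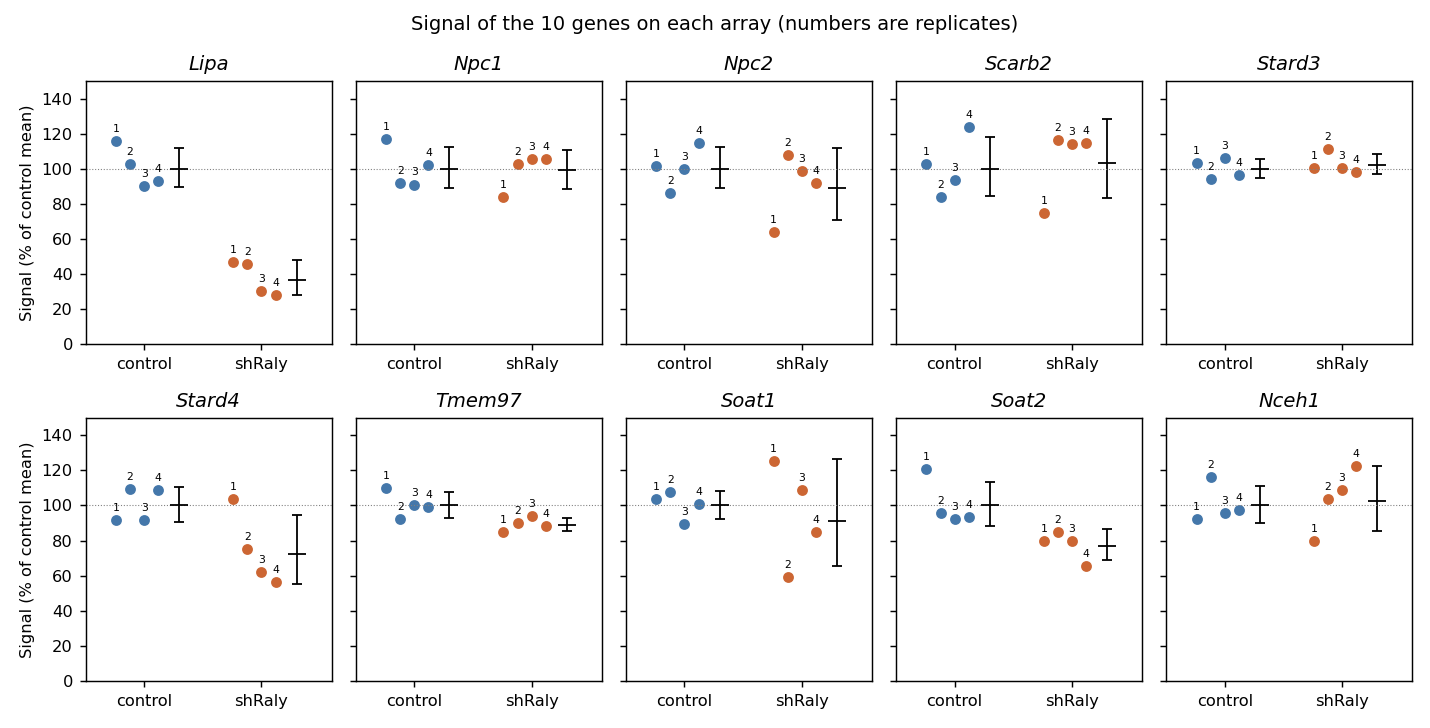
Signal of each of the 10 genes on every array, as % of the control mean (vertical axis, linear from 0), with control arrays in blue and shRaly arrays in orange. Small numbers are replicates, and the black bar is the group mean with 1 SD of the log2 values. Lipa on the shRaly arrays lies between 28.3% and 46.9%, and in 8 of the other 9 genes the groups overlap.

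Of all 14874 genes tested, 45 had a lower log2 fold change than Lipa. Among the 13675 genes well above background on all 8 arrays, a subset that leaves out genes whose signal sank into background, 4 did: Blvrb, Ebp, Cabyr and Ddc, named after their values were seen. Of these Ebp, a sterol isomerase of cholesterol synthesis, passed the array-wide threshold at -2.07 (SE 0.19), and the other 3 did not pass. By the root mean square difference of centred log2 values over the 8 arrays, the genes most like Lipa among 13399 were Nxph3 (0.16), F3 (0.22), which encodes tissue factor, and Mvd (0.22), mevalonate diphosphate decarboxylase of cholesterol synthesis. Nxph3 stood at 46.2%, 44.7%, 33.4% and 31.6% of its control mean on shRaly 1 to 4, the same higher and lower pair of arrays as Lipa. Nxph3, F3 and Mvd were picked for likeness to Lipa over these same arrays, so a shared pattern follows from the choice. Nxph3 is dim, well above background on 3 of 4 shRaly arrays, and its log2 fold change of -1.38 was -0.44 with normexp background correction. Its adjusted p in limma missed the threshold in 6 of 16 other settings. F3 stood at 51.3%, 62.8%, 43.2% and 32.7%, and its adjusted p in limma missed the threshold in 9 of 17 other settings. All of these values share the same arrays and scaling.

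Among the 10 genes, 1 had an adjusted p under 0.05 in the limma fit over all genes (Lipa, lower), beside 1.22% of all genes tested (0.914% lower and 0.309% higher), and 0 were higher. The groups did not overlap for 2 of the 10, Lipa and Soat2, both lower, beside 10.4% of all genes (6.45% lower and 3.93% higher). Because the comparison picked the group, nothing is read from these counts. The median log2 fold change of the 10 genes was -0.15, beside -0.02 for all genes tested. The other 9 genes ran from -0.47 (Stard4) to 0.05 (Scarb2), 6 below 0 and 3 above. Without control 2, control 3 or shRaly 4 the adjusted p of Lipa was no longer under the threshold and the count was 0, while its log2 fold change was -1.43, -1.49 and -1.32.

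**Figure D2:**
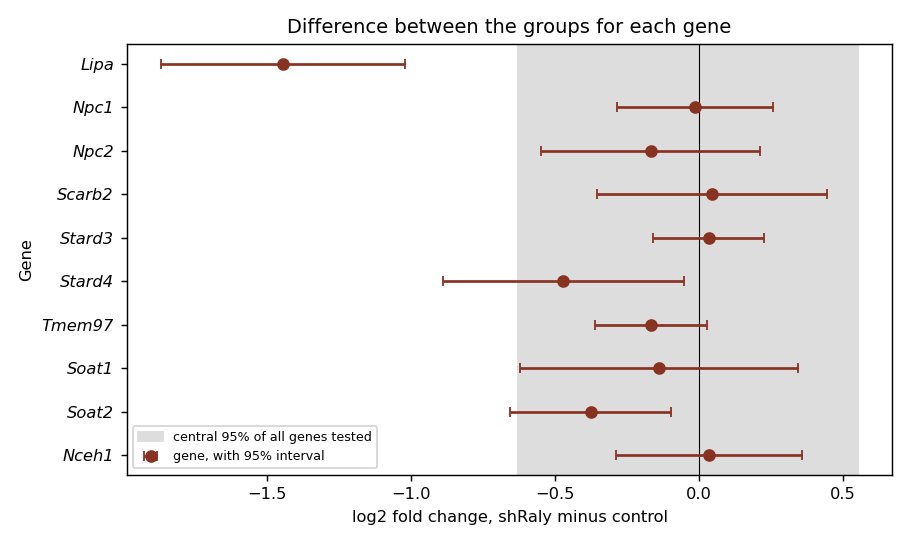
Log2 fold change (shRaly minus control, horizontal axis) of each of the 10 genes, with the 95% interval from the limma fit. The grey band holds the central 95% of all genes tested, from -0.63 to 0.55; Lipa, at -1.44, lies outside it, and the points of the other 9 genes lie inside.

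The first step after Lipa is export from the lysosome. Npc1, which exports cholesterol through the lysosomal membrane, was at 99.1% of control (log2 fold change -0.01, SE 0.12, n = 4 and 4). Its control arrays ran from 91.0% to 117% and its shRaly arrays from 84.1% to 106%, so the groups overlapped. The 95% interval of its level, 82.2% to 120%, does not reach the size of the Lipa difference.

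Npc2, the soluble carrier that passes cholesterol to Npc1, stood at 102%, 86.0%, 99.6% and 115% on control 1 to 4. It stood at 64.2%, 108%, 98.6% and 92.0% on shRaly 1 to 4. Only shRaly 1 lay below every control array. The group mean was 89.0% of control (log2 fold change -0.17, SE 0.17), and without shRaly 1 the log2 fold change was -0.01.

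Scarb2 encodes LIMP-2, a lysosomal membrane protein that carries glucocerebrosidase to the lysosome and can bind cholesterol. Its probe, at chr5:92877611-92878944 (mm9, minus strand), covers 1334 bases of genome with its 60 bases, so it spans an intron. It read 103%, 83.8%, 93.7% and 124% on control 1 to 4 and 74.6%, 116%, 114% and 115% on shRaly 1 to 4. On shRaly 2 to 4 the values lay close together above the control mean, and shRaly 1 lay apart below all controls. The log2 fold change was 0.05 (SE 0.18), and 0.20 without shRaly 1.

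The low values on shRaly 1 were not limited to Npc2 and Scarb2. It was the lowest shRaly array for 5 of the 10 genes (Npc1, Npc2, Scarb2, Tmem97 and Nceh1) and the highest for Lipa, Stard4 and Soat1. Over 36 other lysosomal genes the median value relative to the control mean was -0.27 on the log2 scale on shRaly 1, against -0.10 to 0.06 on the other 3 shRaly arrays and -0.08 to 0.09 on the controls. Endothelial markers had their lowest median on the same array, -0.38, against -0.21 to -0.10 on the other shRaly arrays. Among the shRaly arrays it was also lowest for macrophage (-0.17), lymphocyte and neutrophil (-0.12) and adjacent-tissue markers (-0.33). The shift was not general, since shRaly 1 was the highest shRaly array for stellate cell (-0.07) and bile duct markers (0.34). For hepatocyte markers (-0.11) it lay between the others. The part of these shifts in the Npc2 and Scarb2 values was not tested.

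Of the sterol carriers, Stard3, a late endosome membrane protein that transfers cholesterol, varied little. Its control arrays ran from 94.4% to 106% and its shRaly arrays from 98.1% to 111%. The log2 fold change was 0.03 (SE 0.09), with a 95% interval of the level from 89.6% to 117%.

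Stard4, a soluble carrier of cholesterol to the endoplasmic reticulum and a known SREBP2 target, had 2 probes that did not show the same picture. The brighter probe, which stands for the gene, lies toward the 3′ end, at chr18:33361181-33361240 (mm9, minus strand). It read 91.8%, 109%, 91.5% and 109% on control 1 to 4 and 104%, 75%, 61.8% and 56.5% on shRaly 1 to 4. On shRaly 2 to 4 the values thus lay below all controls, and shRaly 1 lay among the controls. The shRaly group was at 72.2% of control (log2 fold change -0.47, SE 0.18), and without shRaly 1 the log2 fold change was -0.64.

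The second Stard4 probe lies upstream of it, at chr18:33365863-33367852, and spans an intron, since its 60 bases cover 1990 bases of genome. It read 121%, 89.8%, 73.1% and 126% on the controls and 60.7%, 126%, 92.0% and 87.9% on shRaly 1 to 4. Here shRaly 1 was the lowest shRaly array, where it was the highest for the 3′ probe. The log2 fold change was -0.17 (SE 0.25). The difference between the probes on an array (3′ minus junction, log2) ran from 3.43 to 4.15 on the controls, was 4.60 on shRaly 1 and lay between 3.08 and 3.26 on the other 3 shRaly arrays.

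Tmem97, a membrane protein of the endoplasmic reticulum and lysosome that binds NPC1, also has 2 probes, near each other on chromosome 11, and they gave like values. The brighter one (chr11:78355314-78355373, mm9, minus strand) ran from 92.2% to 109.8% on the controls and from 84.9% to 93.8% on shRaly arrays, with a small overlap. The other one (chr11:78355541-78355600) ran from 92.9% to 116% and from 81.1% to 89.5%, with no overlap. The log2 fold changes were -0.17 (SE 0.09) and -0.22 (SE 0.10). Both probes put the shRaly group a little below the controls, at 89.1% and 86.0%.

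**Figure D3:**
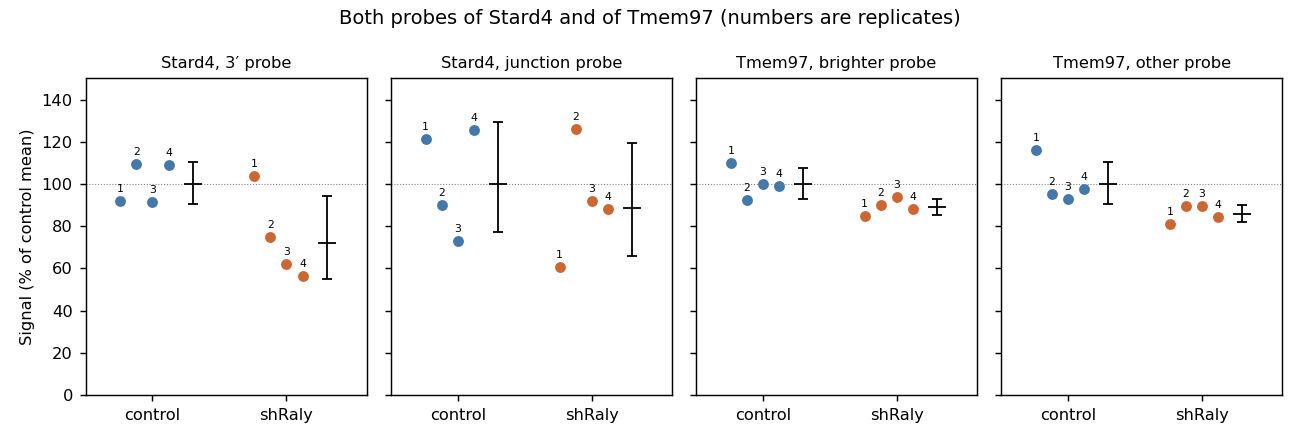
Signal on every array, as % of the control mean of the same probe (vertical axis, from 0), for both probes of Stard4 and of Tmem97; colours, replicate numbers and black bars (mean and 1 SD of log2 values) mark groups and spread. On shRaly 1 the Stard4 probes read 104% and 60.7%, whereas the Tmem97 probes lie at 84.9% and 81.1%.

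The ester-forming enzymes are SOAT1, widespread and prominent in macrophages, and SOAT2, the form of hepatocytes and enterocytes. Soat2 stood at 121%, 95.7%, 92.4% and 93.7% on control 1 to 4 (probe at chr15:101993657-101993716, mm9, plus strand). It stood at 79.8%, 84.9%, 79.9% and 65.2% on shRaly 1 to 4. Every shRaly array was below every control array, by a narrow gap between control 3 and shRaly 2. The shRaly group was at 77.1% of control (log2 fold change -0.38, SE 0.12, n = 4 and 4), with a 95% interval of 63.5% to 93.6%. Without control 1, the highest control, the log2 fold change was -0.28.

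Soat1 was dim, with a signal well above background on 3 of 4 arrays in each group. Its processed signal was between 15.8 and 19.0 on the controls and was 18.6, 8.8, 20.3 and 14.8 on shRaly 1 to 4. After scaling the controls ran from 89.2% to 107%, and the shRaly arrays from 59.1% (shRaly 2) to 125% (shRaly 1). The log2 fold change was -0.14 (SE 0.21), and without shRaly 2, whose spot was not well above background, it was 0.07. At this brightness no difference could be made out.

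Nceh1, a neutral cholesteryl ester hydrolase of the endoplasmic reticulum, splits esters outside the lysosome. Its main probe (chr3:27143709-27143768, mm9, plus strand) ran from 92.2% to 116% on the controls and from 79.7% (shRaly 1) to 122% (shRaly 4). The log2 fold change was 0.03 (SE 0.14), and the groups overlapped. A second probe under this name, at chr3:27183315-27183374, did not rise well above background on any of the 8 arrays and was not tested.

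The wider surroundings of the 10 genes were set beside them through lists of other genes. Of 36 other lysosomal genes, 0 rose and 0 fell by limma (adjusted p under 0.05), 4 were lower and 0 higher at an unadjusted p under 0.05 (16.1% of all genes in either direction), and the median log2 fold change was -0.08. None was lower than Lipa. The lowest were Hexa, a subunit of beta-hexosaminidase, at -0.59 (SE 0.15, adjusted p = 0.10 by limma), and Tfe3, a transcription factor of lysosomal genes, at -0.57 (SE 0.11, adjusted p = 0.0504 by limma). For both, all shRaly arrays lay below all control arrays, which held for 2 of the 36, beside 6.45% of all genes. Hexa read 49.1%, 76.1%, 74.5% and 70.8% on shRaly 1 to 4, and Tfe3 69.2%, 76.8%, 64.3% and 60.7%. Without shRaly 2 the adjusted p of Tfe3 was 0.0393 and the count of lower genes 1.

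Of 24 other sterol transfer proteins tested, 0 rose and 0 fell by limma, with 3 lower and 1 higher at an unadjusted p under 0.05 and a median of 0.09. Osbpl2, an oxysterol-binding protein relative, stood at -0.46 (SE 0.14, adjusted p = 0.167 by limma) and Tspo, a mitochondrial cholesterol-binding protein, at -0.37 (SE 0.12, adjusted p = 0.172 by limma). The list of 24 other ester enzymes and storage proteins also had 0 genes past the threshold by limma, 3 lower and 1 higher at an unadjusted p under 0.05, and a median of -0.04. Plin2, which coats lipid droplets, stood at -0.46 (SE 0.14, adjusted p = 0.154 by limma), and Lipg, endothelial lipase, at 0.51 (SE 0.21, adjusted p = 0.273 by limma) with 5 of 8 arrays well above background. With normexp background correction Lipg stood at 0.11.

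Genes driven by SREBP2 were also counted, in a list that holds its regulators such as Scap too and is called SREBP2 targets here. Of the 24 on the list, 12 fell and 0 rose by limma, beside 0.914% of all genes tested lower and 0.309% higher. The median was -0.81, beside -0.02 for all genes tested. The list was known from earlier results on these arrays to be lower, so it is no independent evidence. Its count ran from 4 (without control 3) to 14 (without shRaly 2), with 5 without control 2, control 4 or shRaly 4 and 6 without control 1 or shRaly 3. Sqle, squalene epoxidase, stood at 45.7%, 47.7%, 47.3% and 48.8% of control on shRaly 1 to 4 (log2 fold change -1.08, adjusted p = 0.00178 by limma). Ebp stood at 20.1%, 36.6%, 21.3% and 20.3%, Mvd at 40.6%, 48.1%, 41.2% and 37.2%, and Idi1, isopentenyl diphosphate isomerase, at 50.6%, 55.5%, 46.0% and 51.6%. Set beside them, Lipa (-1.44) was lower than 23 of the 24, and Stard4 (-0.47) and Tmem97 (-0.17), which are also known SREBP2 targets, were above the list's median.

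**Figure D4:**
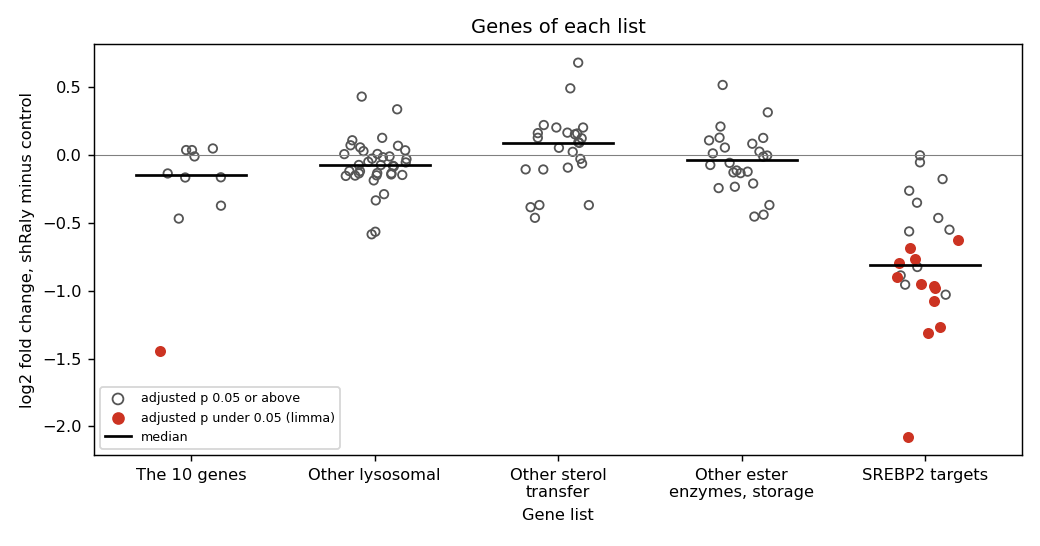
Log2 fold change (shRaly minus control, vertical axis) of each tested gene in the group of 10 and in 4 lists; red points had an adjusted p under 0.05 in limma and black lines are medians. The group of 10 has 1 red point, Lipa, whose values chose the group. The SREBP2 targets have 12 red points, and the other 3 lists have none.

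Lipa and Soat1 are strongly expressed in macrophages, and Soat2 in hepatocytes, so markers of these cells are given beside them. Of 15 Kupffer cell and macrophage markers, 13 were tested, all well above background on all 8 arrays, and 0 rose or fell by limma (0 at an unadjusted p under 0.05). Their median on an array ran from -0.28 to 0.15 on the controls and from -0.17 to 0.12 on the shRaly arrays. The median log2 fold change was -0.02 for them and -0.04 for the hepatocyte markers (0 of 16 past the threshold by limma, 4 lower and 1 higher at an unadjusted p under 0.05). Single markers lay further from 0 than these medians. Of the macrophage markers, the integrin gene Itgam stood at -0.73 (SE 0.36), with 129% of control on shRaly 1 and 42.8% to 54.8% on the other 3 shRaly arrays, and Mpeg1 at 0.23 (SE 0.15). Of the hepatocyte markers, the fibrinogen genes Fga and Fgb stood at -0.63 (SE 0.21) and -0.29 (SE 0.10). For Fga every shRaly array lay below every control array, which held for 1 of the 16 markers, beside 6.45% of all genes.

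Endothelial markers had a median of -0.21 and stellate cell markers -0.15, also with 0 past the threshold by limma (4 and 2 lower at an unadjusted p under 0.05). Stab2, a scavenger receptor of liver sinusoids, stood at -0.31 and Flt1, a VEGF receptor, at -0.38, which was -0.11 with the mean of its probes. Col1a2, a collagen chain, stood at -0.49 and Pdgfrb, a growth factor receptor of stellate cells, at -0.46. Of the 12 endothelial markers tested, 9 were below 0 and 3 above, with Pecam1 at 0.10. Of the 11 stellate cell markers tested, 8 were below 0 and 3 above, with Dcn at 0.09. The T cell genes Cd4 and Cd3e stood at -0.75 (SE 0.22) and -0.39 (SE 0.12), but Cd3g and Cd8a stood at 0.23 and 0.13. Cd4 was much brighter than Cd3e (control means 5.09 and 0.79 on the scaled log2 scale), so it cannot be read here as marking T cells. Cd8a was dim, with 6 of 8 arrays well above background. Of the 14 lymphocyte and neutrophil markers tested, 6 were below 0 and 8 above, with a median of 0.08. The groups did not overlap for 2 of the 14, Cd3e among them, both lower, beside 6.45% of all genes. Of the bile duct markers, Sox9 stood at -0.21 and Epcam at -0.22, and Epcam ran from -0.55 to 0.05 over the other settings. The other bile duct markers tested, Krt19, Krt7 and Spp1, stood at 0.15, 0.19 and -0.12. Of the markers of adjacent tissue, Fabp2 stood at -0.31 and Vil1, dim, at -0.51, which was -0.08 with normexp. The other genes tested from that list, Cela1 and Amy2a5, stood at 0.25 and -0.002. Fabp2, with a control mean of 6.84 on the scaled log2 scale, lay toward the dim end of the range of the hepatocyte markers. These ran from 6.13 (Cps1) to 10.4 (Alb). Fabp2 thus cannot be read here as marking intestine. The part of any of these cell types in the values of Lipa, Soat1 and Soat2 was not tested.

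The promoter of Lipa is shown because Lipa carries the main difference. RefSeq windows on GRCm38.p6, from 250 bases before to 50 after the start, were matched by symbol for 7 of the 10 genes, not for Npc1, Stard4 and Soat2. The 250 bases before the Lipa start are chr19:34527475-34527724 (minus strand), printed from 5′ to 3′ in lower case, with none in capitals since no motif below was found:

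Lipa upstream: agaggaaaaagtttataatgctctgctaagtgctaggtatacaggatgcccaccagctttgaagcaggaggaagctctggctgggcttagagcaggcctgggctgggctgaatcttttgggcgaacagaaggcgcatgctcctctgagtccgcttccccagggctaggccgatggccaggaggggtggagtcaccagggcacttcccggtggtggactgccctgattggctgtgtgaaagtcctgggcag

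The motifs searched, on both strands, were CACGTG (E-box), TCACGTGA (core of the element shared by lysosomal genes, which overlaps the E-box) and TCACNCCAC (sterol regulatory element). Of all 32851 windows of this length, 7.15%, 0.974% and 1.24% hold them. Among the 7 windows, that of Stard3 holds the sterol regulatory element, 211 bases before the start, and that of Nceh1 the E-box, 26 bases before the start. Neither gene differed in its groups beyond the spread of the arrays. No match in the Lipa window says only that these letters are not in it.

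The size of the Lipa difference changed little with the processing. Its log2 fold change ran from -1.52 to -1.31 over 9 other settings and from -1.56 to -1.32 over the 8 analyses that each left out 1 array, all 17 below 0. For Npc2, Stard4, Soat2 and Tmem97 the log2 fold change was likewise below 0 in 17 of 17 settings. The settings that cannot move Lipa cannot move these genes either, save the mean of probes for Stard4 and Tmem97. Npc1, Scarb2, Nceh1, Stard3 and Soat1 had both signs among their settings.

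**Figure D5:**
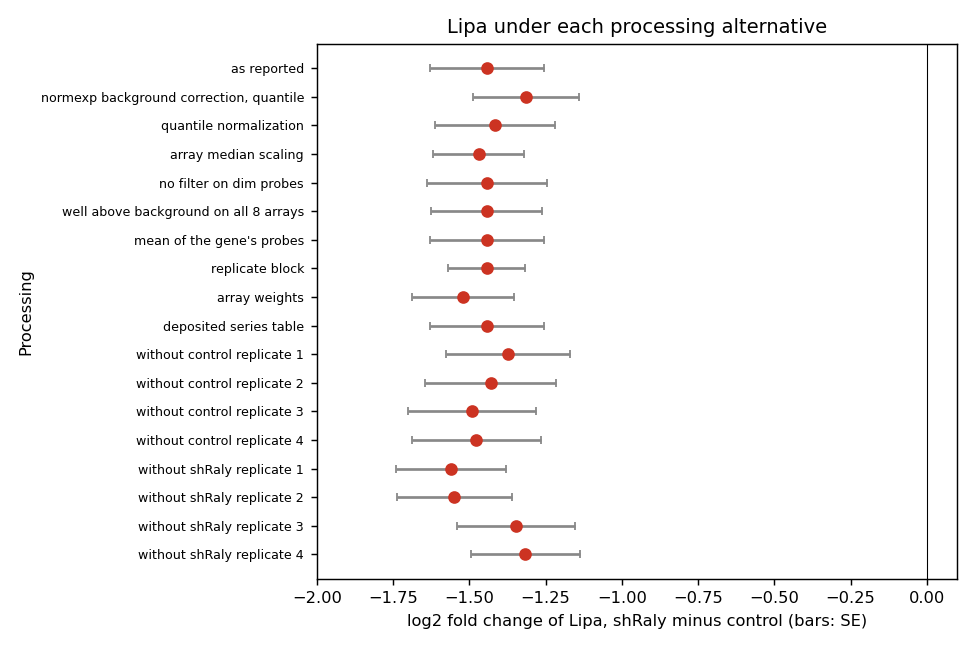
Log2 fold change of Lipa (shRaly minus control, horizontal axis, points with SE) as reported and under each of 17 processing alternatives. All 18 points lie between -1.56 and -1.31, and the alternatives at -1.44 are settings that cannot move the value.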

How the data were processed

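Single-colour Agilent arrays of mouse liver RNA (4 control, 4 shRaly; groups and replicate numbers from the titles) were used. The deposited processed signal is an intensity that Agilent Feature Extraction (version 11.5.1.11 per the submitters' processing notes, 11.5.1.1 per the file headers) had background-subtracted and detrended, with surrogates for faint spots, and had not normalized between arrays. The deposited flags for spots well above background and for outliers were used as given. The deposited table of the whole series equals this signal for 62976 of 62976 spots on every array (relative tolerance 1e-06). It is on a linear scale and not centred, with column medians from 13.3 to 16.4. The sources used here do not give the authors' own tests or normalization.

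For this work the intensity was taken to log2, each array's 75th percentile over non-control spots (7.86 to 8.19) was subtracted, and flagged spots (137 to 163 per array) were set to missing; no member spot was flagged and no spot was saturated. Names came from RefSeq accessions in the files through a GRCm38.p6 gene table (27656 probes), then current (3401) and older symbols (321); 1775 kept the file's name and 22528 had none. A gene was tested if it had a probe with 4 or more of the 8 arrays well above background and values on 3 or more arrays per group; its brightest such probe stood for it. Groups were compared with limma 3.58.1 in R 4.3.3 (lmFit, eBayes, Benjamini-Hochberg over 14874 genes, threshold 0.05); the fit was tested on simulated data. The labels do not name separate animals, so p-values rest on the spread of these samples, which may be technical. The number of arrays limits the precision. The members, lists and tests were chosen with earlier results of these data known. Genes named are the members, Raly, from each list the 4 of smallest p among those past the threshold (else the 2 of smallest p, as values), and the 3 nearest to Lipa; others are said to be named after their values were seen. Of the lists, T and B cell and neutrophil (median 0.08), cholangiocyte (-0.12) and adjacent-tissue markers (-0.15; 4 of 11 tested) had 0 genes past the threshold by limma (3, 0 and 2 at an unadjusted p under 0.05). Coordinates of probes are those of the files (mm9); where they lie in exons was not analysed here. Alternatives were other background correction, scaling, filters, probe averaging, a replicate block, array weights and each array left out.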

Additional observations from a re-analysis of the deposited data

Results flagged for a closer look

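On 5 of the 74 groups of 4 arrays examined for the 10 genes, Raly and the genes picked from the lists or as nearest to Lipa, 1 array stood apart from the other 3 by more than the 95% limit of Dixon's test, which chance passes in about 1 in 20 groups. For Scarb2, shRaly 1 read 74.6% of the control mean. For Npc1, the same array read 84.1%, and for Hexa 49.1%. For Soat2, control 1 read 121%. For Ebp, shRaly 2 read 36.6%.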

How the results depend on the processing

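The 169 alternative values of the 10 genes' log2 fold changes all lay within 1 SD of the arrays from those reported. Some of them equal the reported value because the setting cannot move it. The count of genes past the threshold, 182, was 42 with no filter on dim probes, 46 with a replicate block and 492 with array weights, and ran from 17 to 282 with single arrays left out. That of the 10 genes, 1, ran from 0 to 1 with single arrays left out. Raly passed with normexp (-0.64, adjusted p = 0.0323) and without shRaly 2 (-0.80, 0.0297), its values ranging from -0.80 to -0.59 in the leave-outs. Other lysosomal genes past the threshold were 1 with normexp, 1 among genes above background on all 8 arrays, 1 with the mean of probes and 2 with array weights, and 0 to 1 in the leave-outs. Array weights gave 1 sterol transfer gene and 1 endothelial marker. SREBP2 targets were 5 with no filter and 3 with the replicate block, and 4 to 14 in the leave-outs. Lymphocyte and neutrophil markers past it ran from 0 to 1 in the leave-outs. The cholangiocyte median ran from -0.23 to 0.25 in the leave-outs, and the adjacent-tissue median was 0.11 with no filter. Of 438 values of 26 genes picked from the lists or as nearest to Lipa, 16 lost a call, 8 gained one and 0 reversed. The causes were not tested. Same-numbered arrays of the groups lay in the same slide column, and the correlations of their deviations were 0.09, -0.02, -0.07 and 0.14. With so few arrays these values cannot say whether same-numbered arrays were paired. With the replicate block the count of the 10 genes past the threshold was also 1. Nothing is read from it, since the Lipa values chose the group. Soat1, near background, limits what can be said of it.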
